A study of Rattus norvegicus with 15 samples.

Results

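A set of 5 genes that serve as standard readouts of cell division were followed in rat brain after intracerebral hemorrhage (ICH), that is, bleeding into the brain tissue. They were the rows listed by Ensembl ID as Ccnd1 (ENSRNOG00000020918), Pcna (ENSRNOG00000021264), Top2a (ENSRNOG00000053047), Mki67 (ENSRNOG00000028137) and Cdk1 (ENSRNOG00000000632). All 5 were among the 15094 genes of the count table, and all 5 passed the filter on low counts that left 14963 genes for testing. The table does not pair IDs with names, so the 5 names are those of the list that chose the genes and were not checked against an annotation. The rats were Sprague-Dawley, an outbred laboratory stock, and brain tissue labelled as basal ganglia was taken 72 h after modelling. Sham rats had a sham operation, ICH rats had a hemorrhage, and ICH_MA rats had a hemorrhage followed by mithramycin A. How the hemorrhage was made, the dose and timing of the drug, and the age and sex of the animals were not given in those labels. The table held 5 Sham libraries, 3 ICH libraries (replicates 1, 2 and 5) and 3 ICH_MA libraries (replicates 1, 2 and 3), while 4 more samples named by the labels were not analysed here.

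A dividing cell switches these genes on in sequence. Ccnd1 encodes cyclin D1, which activates the kinases that carry a resting cell through G1 towards DNA synthesis. Pcna encodes the ring-shaped clamp that holds DNA polymerases on the template during S phase and also serves in DNA repair, so it is expressed in resting tissue too. Top2a encodes topoisomerase II alpha, which untangles replicated chromosomes, Mki67 encodes the Ki-67 antigen of proliferating cells, and Cdk1 encodes the kinase that drives entry into mitosis. In adult brain most neurons no longer divide, whereas microglia, astrocytes, oligodendrocyte precursors, endothelial cells and infiltrating leukocytes can. Mithramycin A binds GC-rich DNA and is known to displace the transcription factor Sp1 from GC boxes.

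Libraries held 56393423 to 67733469 counts, and ranges overlapped between the 3 groups. The value unit below is CPM, the count scaled to a common library total after TMM (a normalization that sets most genes equal between libraries). CPM is not corrected for gene length, so levels are compared within a gene only. ICH replicate 5 had the lowest CPM of the ICH group for each of the 5 genes. Over all genes tested, the ICH order from high to low was 1, 2, 5 in 22.2% and 2, 1, 5 in 16.4%. The other orders, with replicate 1 or 2 lowest, held 13.1% to 17.9% each, so replicate 5 was lowest only somewhat more often than the others. Values without ICH replicate 5 are given in each comparison. The labelled tissue was not checked against marker genes, because IDs could not be matched to symbols, and the lists of further cell cycle genes and of cell type markers were not tested for the same reason.

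Promoter sequence was available in RefSeq (build GRCr8) for 4 of the 5 genes. It is shown because the drug given binds GC-rich DNA. The 250 bases before the annotated start were searched on both strands for 4 motifs of known factors: the GC box GGGCGG (bound by Sp1), the CCAAT box CCAAT (bound by NF-Y), the CHR element TTTGAA (bound by complexes that repress cell cycle genes in resting cells and activate them in dividing ones) and an E2F motif written as TTTCCCGC, TTTCGCGC, TTTGCCGC or TTTGGCGC. Capitals mark the matches, and sequences run 5′ to 3′ on the strand of the gene. Cdk1 lies at chr20:19265043-19265292 on the plus strand, and the others lie on the minus strand, Top2a at chr10:84473094-84473343, Mki67 at chr1:199952594-199952843 and Pcna at chr3:139955821-139956070. The counts were made on another build, mRatBN7.2, so these positions apply to the sequences alone.
Cdk1: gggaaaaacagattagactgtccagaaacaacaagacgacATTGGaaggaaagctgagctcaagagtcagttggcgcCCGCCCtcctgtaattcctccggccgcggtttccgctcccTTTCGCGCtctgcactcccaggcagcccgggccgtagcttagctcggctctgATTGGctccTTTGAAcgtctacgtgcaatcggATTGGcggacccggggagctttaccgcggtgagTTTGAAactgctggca
Top2a: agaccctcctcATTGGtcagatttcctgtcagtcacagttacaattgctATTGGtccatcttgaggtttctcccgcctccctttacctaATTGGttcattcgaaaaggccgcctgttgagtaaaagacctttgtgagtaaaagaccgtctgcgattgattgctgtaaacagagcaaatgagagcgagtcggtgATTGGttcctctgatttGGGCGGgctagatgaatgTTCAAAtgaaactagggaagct
Mki67: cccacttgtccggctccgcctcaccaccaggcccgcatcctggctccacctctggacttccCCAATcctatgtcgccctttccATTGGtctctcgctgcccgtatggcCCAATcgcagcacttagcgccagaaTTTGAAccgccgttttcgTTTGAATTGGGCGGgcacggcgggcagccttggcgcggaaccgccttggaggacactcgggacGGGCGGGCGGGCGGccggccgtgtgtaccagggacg
Pcna: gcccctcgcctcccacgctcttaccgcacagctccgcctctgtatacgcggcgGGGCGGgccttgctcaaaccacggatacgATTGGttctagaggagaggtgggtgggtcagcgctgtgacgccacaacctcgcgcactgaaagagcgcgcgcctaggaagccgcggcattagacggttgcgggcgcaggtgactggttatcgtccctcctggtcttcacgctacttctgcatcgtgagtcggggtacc

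Mki67 had 10 matches, Cdk1 had 7, Top2a had 6 and Pcna had 2; the total of matches in other promoters was not counted. The CHR letters occurred in Cdk1 (starting 72 and 16 bases before the start), in Mki67 (117 and 99 bases before) and in Top2a (22 bases before, on the opposite strand), and were not in this window of Pcna. Of 33469 rat promoters of the same length, 16.2% held the CHR letters, 34.0% held a CCAAT box and 5.87% held both, as Cdk1, Top2a and Mki67 did. All 4 genes held a CCAAT box. A GC box was present in all 4 promoters as well, against 30.5% of all promoters, and Mki67 had 4 of them, 3 of which overlap. In Mki67 a CHR match, a CCAAT box and a GC box also overlap at 99 to 86 bases before the start. An E2F motif in these spellings was found in Cdk1 alone of the 4, and in 1.73% of all promoters. GC content was 45.6% in Top2a, 57.6% in Cdk1, 63.6% in Pcna and 66% in Mki67, against a median of 51.2%. The shares are over all 33469 promoters and not over those of the genes tested here, so they are no background for expressed genes. These matches describe letters in a window, and binding was not measured.

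**Figure D1:**
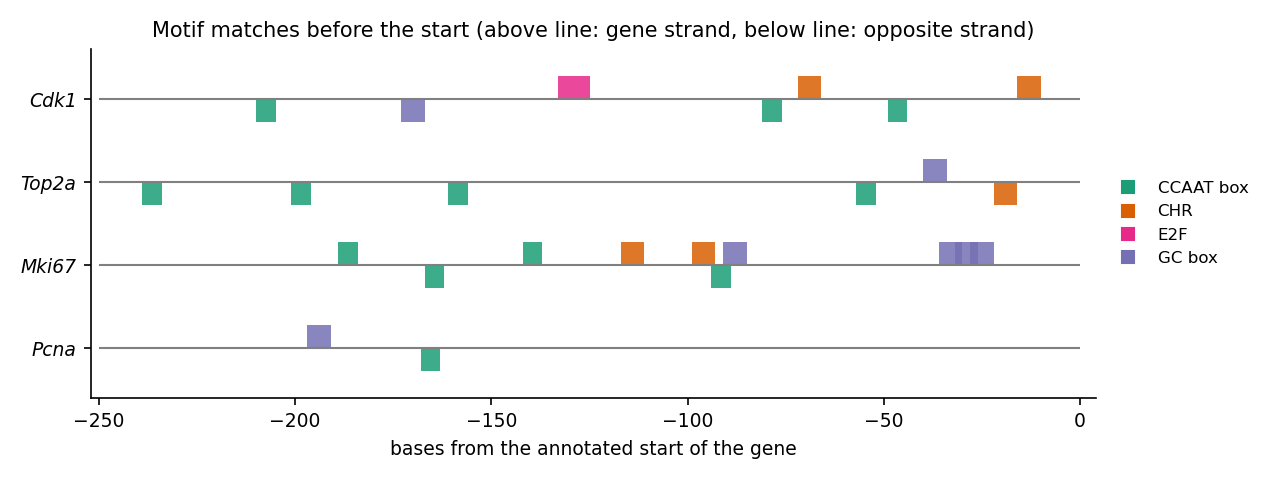
Motif matches in the 250 bases before the start of 4 genes, plotted by distance from the start in bases; boxes above each line are on the strand of the gene and boxes below on the opposite strand. Cdk1, Top2a and Mki67 carry 6 to 10 matches each, including CHR matches, and Pcna carries 2.

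The first comparison asked how these genes stood 72 h after hemorrhage. All 5 rose in ICH against Sham (5 of 5 at adjusted p under 0.05, edgeR quasi-likelihood F test, 3 against 5 libraries), where 15.0% of all genes tested were called higher. The rises fell into 2 sizes: Cdk1, Top2a and Mki67 rose 7.15-fold to 15.7-fold, whereas Ccnd1 and Pcna rose 2.05-fold and 1.69-fold. The median log2 fold change of the 5 was 2.84, against 0.00 for all genes tested. Every ICH library lay above every Sham library for all 5 genes, which was so for 15.2% of all genes. In whole tissue, more dividing cells and more of these RNAs per cell cannot be told apart.

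Ccnd1, the cyclin of G1, stood at 19.6, 18.5, 20.3, 20.1 and 19.2 CPM in Sham replicates 1 to 5. It reached 50.1, 42.0 and 28.4 CPM in ICH replicates 1, 2 and 5. The 3 ICH values were all above the Sham range, which was narrow, and replicate 5 was the nearest to it. The Sham libraries averaged 19.5 ± 0.737 CPM (SD, n = 5) and the ICH libraries 40.1 ± 10.97 CPM (SD, n = 3), a log2 rise of 1.04 ± 0.16 (SE, edgeR adjusted p = 0.00114).

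Pcna, the replication clamp, had the smallest rise of the 5 and a substantial level in Sham. Its Sham values were 32.4, 33.6, 32.9, 31.8 and 31.2 CPM in replicates 1 to 5. In ICH replicates 1, 2 and 5 it stood at 67.7, 54.8 and 42.0 CPM. The groups did not overlap, and the highest Sham library was 8.37 CPM below the lowest ICH library. Mean Pcna was 32.4 ± 0.949 CPM over the Sham libraries (SD, n = 5) and 54.8 ± 12.9 CPM over the ICH libraries (SD, n = 3), a log2 rise of 0.76 ± 0.11 (SE, edgeR adjusted p = 0.00112).

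Top2a, the topoisomerase of S phase to mitosis, was low and uneven in Sham, at 3.30, 1.87, 1.62, 3.41 and 1.33 CPM in replicates 1 to 5. It was at 46.8, 34.3 and 11.6 CPM in ICH replicates 1, 2 and 5. Although the highest Sham library was 2.56 times the lowest, all ICH libraries lay well above both. Sham averaged 2.31 ± 0.978 CPM (SD, n = 5) and ICH averaged 30.9 ± 17.8 CPM (SD, n = 3), a log2 rise of 3.74 ± 0.41 (SE, edgeR adjusted p = 0.000309). This was the 65th highest log2 fold change of the 14963 genes.

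Mki67, the Ki-67 antigen, stood at 5.66, 3.98, 4.84, 4.59 and 4.47 CPM in Sham replicates 1 to 5 and at 48.9, 36.4 and 15.9 CPM in ICH replicates 1, 2 and 5. The lowest ICH library was again replicate 5, and it was still 3.38 times the Sham mean. Mean Mki67 was 4.71 ± 0.620 CPM across Sham (SD, n = 5) and 33.7 ± 16.6 CPM across ICH (SD, n = 3), a log2 rise of 2.84 ± 0.30 (SE, edgeR adjusted p = 0.000287). It ranked 134th by log2 fold change.

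Cdk1, the mitotic kinase, was low in Sham, at 0.672, 0.581, 0.657, 0.737 and 0.638 CPM in replicates 1 to 5, which rested on 35 to 48 counts per library. A count of 35 has an exact 95% Poisson interval of 24.4 to 48.7, which covers counting error only. In ICH replicates 1 and 2 Cdk1 reached 15.2 and 13.4 CPM (909 and 805 counts), and in replicate 5 it reached 2.44 CPM (161 counts). The ICH libraries thus differed 6.25-fold among themselves, the widest range of the 5 genes in this group, and all lay above Sham. The mean rose from 0.657 ± 0.0564 CPM (SD, n = 5) to 10.3 ± 6.91 CPM (SD, n = 3), a log2 rise of 3.97 ± 0.50 (SE, edgeR adjusted p = 0.000516). The 95% confidence interval of this 15.7-fold rise ran from 7.33-fold to 33.5-fold, and it ranked 55th of the 14963 genes.

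**Figure D2:**
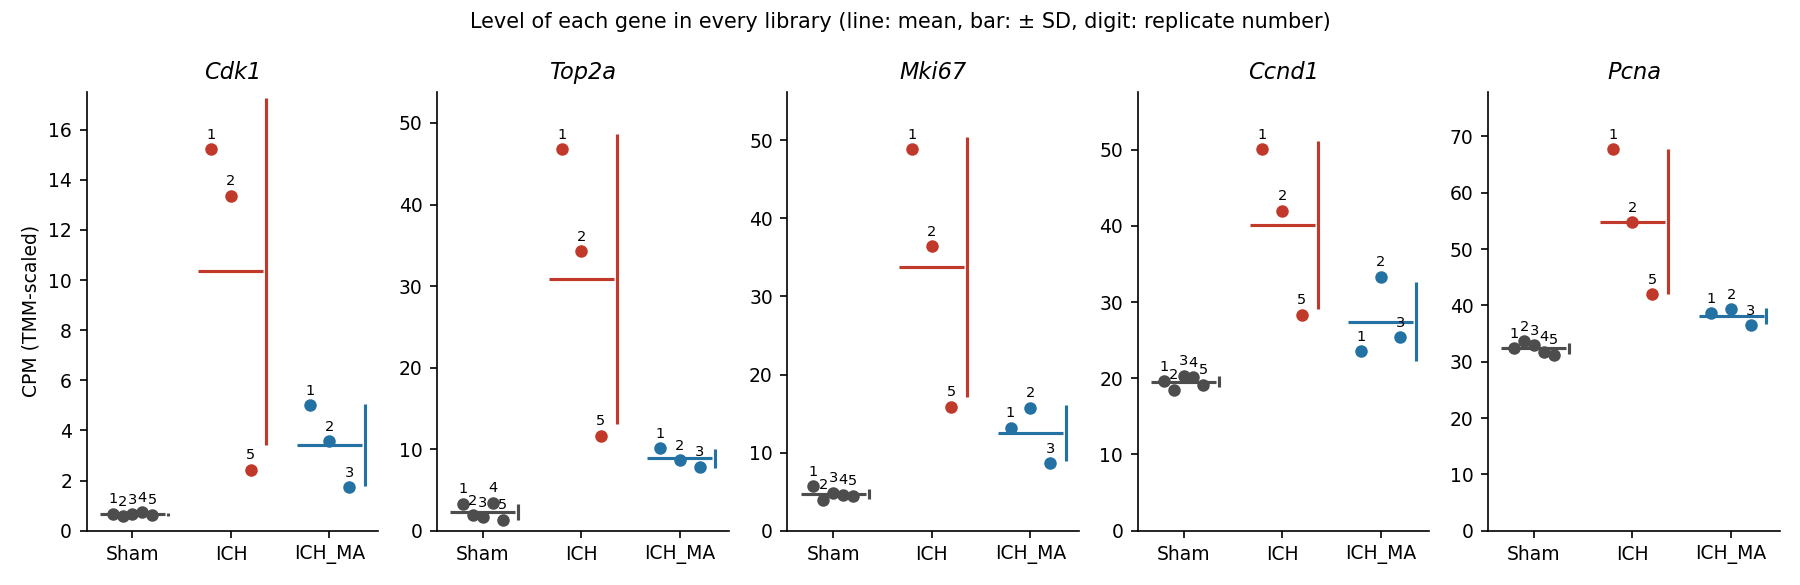
CPM (TMM-scaled, linear axes from 0) of each gene in the 5 Sham, 3 ICH and 3 ICH_MA libraries; points are libraries marked with their replicate number, horizontal lines are means and vertical bars are ± SD. Every ICH and ICH_MA point lies above the Sham points of its gene, and ICH replicate 5 is the lowest ICH point in all 5 panels.

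All 5 rises held with each of the 11 libraries left out in turn. Without ICH replicate 5 the log2 fold changes were 4.44 for Cdk1, 4.13 for Top2a, 3.18 for Mki67, 1.24 for Ccnd1 and 0.92 for Pcna.

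The ICH libraries kept one order in every gene. Replicate 1 was highest, replicate 2 was next and replicate 5 was lowest for all 5 genes, an order found in 22.2% of all genes tested. Relative to the Sham mean, Cdk1 was 23.2-fold in replicate 1, 20.3-fold in replicate 2 and 3.71-fold in replicate 5, and Pcna was 2.09-fold, 1.69-fold and 1.30-fold. In the ICH_MA group the order was not shared: replicate 1 was highest for Cdk1 and Top2a, and replicate 2 was highest for Mki67, Ccnd1 and Pcna. After removal of the group means, log2 CPM of the 10 pairs of genes correlated at Pearson's r of 0.65 (Top2a and Ccnd1) to 0.92 (Cdk1 and Mki67) over 11 libraries. The points share libraries and their scaling, and the ICH group has the widest spread, so these values describe the libraries and carry no test.

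**Figure D3:**
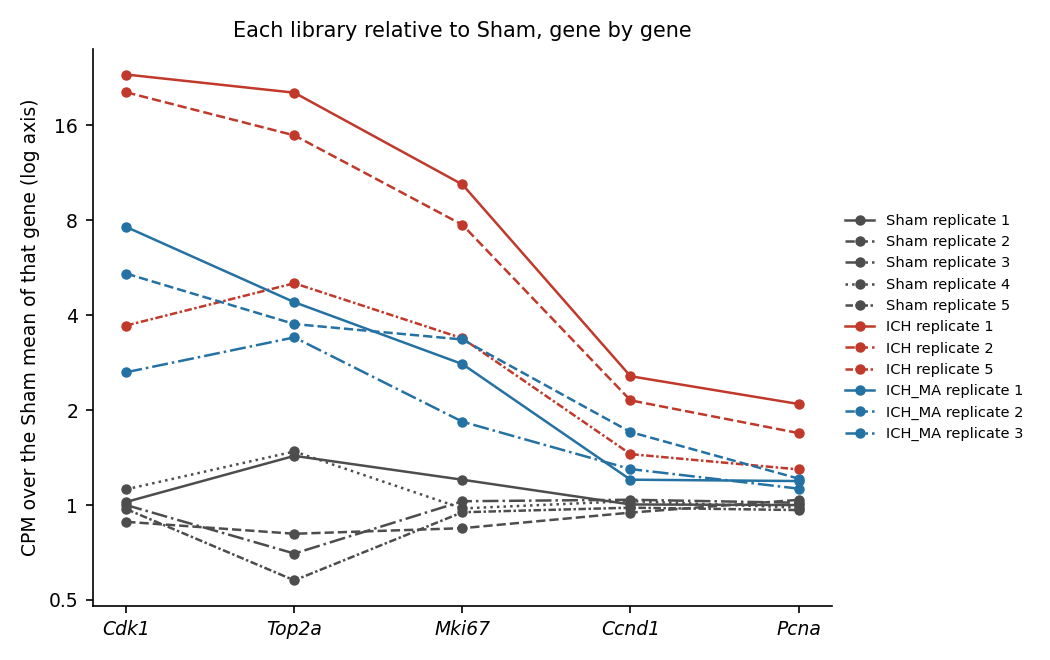
CPM of each library divided by the Sham mean of the gene (log axis) for Cdk1, Top2a, Mki67, Ccnd1 and Pcna; each line is 1 library, coloured by group. ICH replicates 1 and 2 run at the top from 23.2-fold and 20.3-fold for Cdk1 down to 2.09-fold and 1.69-fold for Pcna. ICH replicate 5 stands at 3.71-fold for Cdk1, 5.05-fold for Top2a and 1.30-fold for Pcna, nearer to the ICH_MA libraries than to ICH replicates 1 and 2.

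The genes can also be compared as ratios of 2 genes within a library, which do not depend on library scaling. The ratios were computed after the rises were seen and use the same libraries, so they are a description and not a second line of evidence. Log2 ratios were averaged over the libraries of a group, so the factors below need not equal the quotient of 2 edgeR fold changes. The ratio of Cdk1 to Pcna counts was 7.27 times as high in ICH as in Sham, and 11.6 times without ICH replicate 5. For Top2a to Pcna the factor was 7.44 (9.92 without that library), and for Mki67 to Pcna it was 3.92 (4.80 without it). For Ccnd1 to Pcna the factor was 1.20, and for Cdk1 to Top2a it was 0.977 (1.17 without ICH replicate 5). In ICH_MA against Sham the ratio of Cdk1 to Pcna was 4.07 times as high, with a range of 3.24 to 5.36 when 1 library was left out. None of the 20 ratios in these 2 comparisons passed after adjustment (smallest adjusted p = 0.051, exact two-sided permutation test). The smallest unadjusted p that 3 against 5 libraries allow is 0.0357, so the test had little room to pass. No lack of change is read from it. Groups did not overlap in 7 of the 10 ratios of each comparison. The 10 ratios are built from the same 5 genes, and the share over other pairs of genes was not computed, so this count is a description only.

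The next question was how mithramycin A moved these genes after hemorrhage. All 5 genes had lower means in ICH_MA than in ICH, by 1.44-fold (Pcna) to 3.48-fold (Top2a), and none passed the test (0 of 5 at adjusted p under 0.05, edgeR, 3 against 3 libraries). Of all genes tested 0.00% were called lower. At an unadjusted p under 0.05 all 5 were lower, where 9.26% of all genes were. The median log2 fold change of the 5 was −1.43, against −0.02 for all genes. This comparison and the first share the 3 ICH libraries, so a library that is high by chance in ICH raises the one and lowers the other.

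Top2a was at 10.1, 8.64 and 7.84 CPM in ICH_MA replicates 1, 2 and 3, a mean of 8.87 ± 1.17 CPM (SD, n = 3), below its lowest ICH library. The log2 difference from ICH came to −1.80 ± 0.46 (SE, edgeR adjusted p = 0.176). Mki67 was at 13.2, 15.8 and 8.65 CPM, a mean of 12.5 ± 3.60 CPM (SD, n = 3), with a log2 fold change of −1.43 and SE 0.34 (edgeR adjusted p = 0.176). The highest ICH_MA library of Mki67 lay 0.132 CPM below ICH replicate 5, so this separation was slight. Pcna was at 38.6, 39.3 and 36.5 CPM, a mean of 38.1 ± 1.44 CPM (SD, n = 3), again below all ICH libraries. The log2 difference from ICH came to −0.52 ± 0.13 (SE, edgeR adjusted p = 0.176). These 3 genes were separated downwards, which was so for 9.14% of all genes.

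Cdk1 and Ccnd1 overlapped between the treated and untreated groups. Cdk1 was at 5.00, 3.56 and 1.73 CPM in ICH_MA replicates 1, 2 and 3, and ICH replicate 5, at 2.44 CPM, lay inside that range. Its mean of 3.43 ± 1.64 CPM (SD, n = 3) differed from the ICH mean by −1.59 ± 0.54 on the log2 scale (SE, edgeR adjusted p = 0.226). Ccnd1 was at 23.5, 33.3 and 25.4 CPM, and its replicate 2 was above ICH replicate 5. The mean was 27.4 ± 5.19 CPM (SD, n = 3), a log2 difference of −0.55 ± 0.18 (SE, edgeR adjusted p = 0.209). The intervals are wide: for Cdk1 the 95% confidence interval ran from 1.32-fold to 6.86-fold lower, and for Ccnd1 from 1.12-fold to 1.92-fold lower.

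These calls depended on 1 library and on the method. ICH replicate 5 was the lowest ICH library for all 5 genes, so leaving it out raises the ICH mean. Without ICH replicate 5 all 5 genes were called lower in ICH_MA, with log2 fold changes of −2.06 for Cdk1, −2.19 for Top2a, −1.77 for Mki67, −0.75 for Ccnd1 and −0.68 for Pcna (edgeR adjusted p = 0.00204 to 0.00938), and 5.68% of all genes were called lower. Leaving out any other library gave 0 of 5. DESeq2 with all libraries called Top2a, Mki67 and Pcna lower (adjusted p = 0.00729, 0.00439 and 0.0173), against 1.89% of all genes, and limma-voom called 0 of 5. Genes that rise with hemorrhage and turn back with the drug were also looked for, which was not among the planned tests. By edgeR with all libraries 0 of the 5 met both conditions, as did 0.00% of all genes tested. Without ICH replicate 5 all 5 did, against 5.47% of all genes, and 31.0% of the genes called higher in ICH met the second condition too. With DESeq2 on all libraries 3 of the 5 did, against 1.62% of all genes. Both conditions use the same ICH libraries, so they are not independent.

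**Figure D4:**
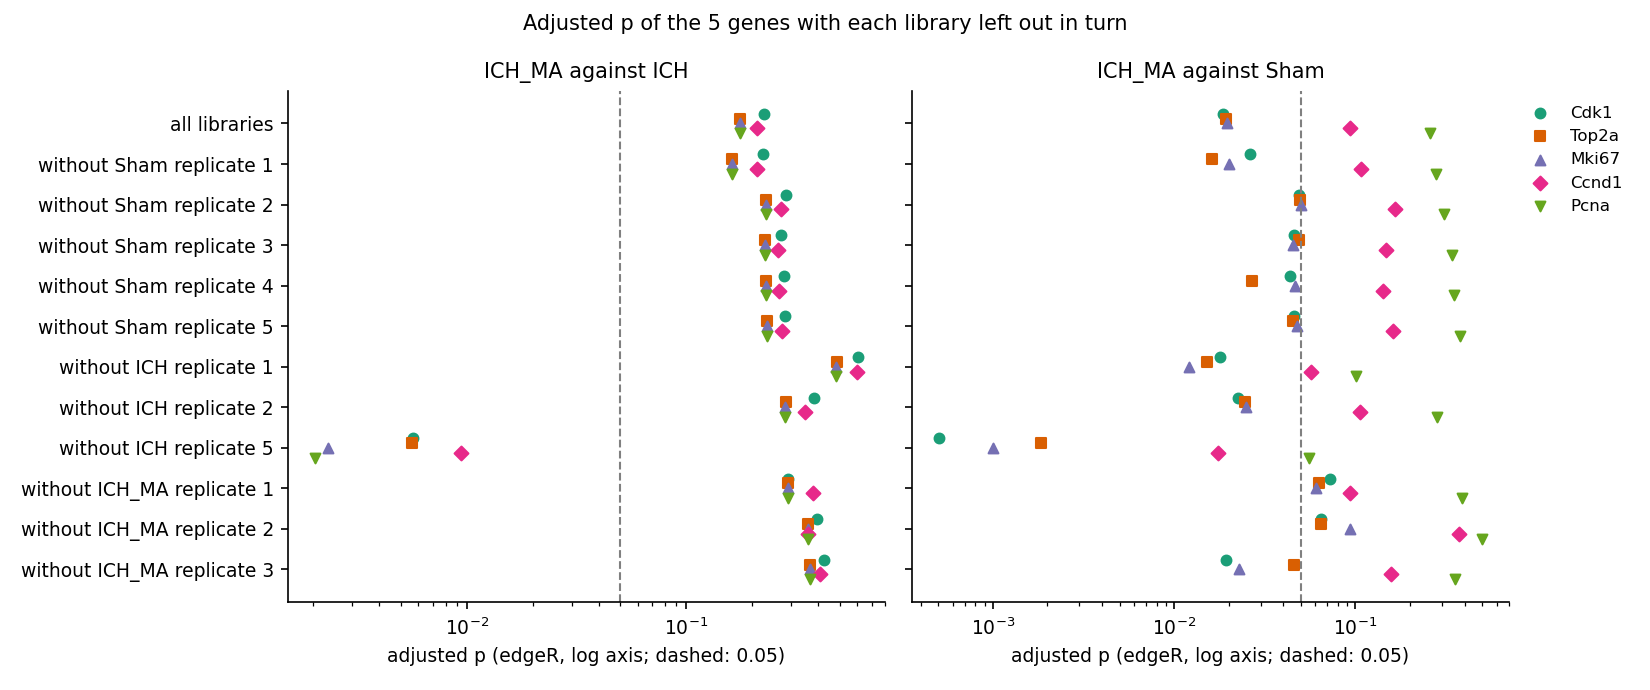
Adjusted p (edgeR, log axis) of the 5 genes with all libraries and with each of the 11 left out in turn, for ICH_MA against ICH (left) and ICH_MA against Sham (right); the dashed line is 0.05. On the left, points lie below the line only without ICH replicate 5, where they run from 0.00204 to 0.00938; on the right, Cdk1, Top2a and Mki67 lie above it without ICH_MA replicate 1 or 2, and Ccnd1 lies below it without ICH replicate 5.

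The third comparison set treated rats against Sham. Cdk1, Top2a and Mki67 were called higher in ICH_MA than in Sham (3 of 5 at adjusted p under 0.05, edgeR, 3 against 5 libraries), where 5.00% of all genes were called higher. Ccnd1 and Pcna were not called in this fit. Every ICH_MA library lay above every Sham library for all 5 genes, which held for 11.8% of all genes. The comparison shares its Sham libraries with the first and its ICH_MA libraries with the second.

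Cdk1 was 5.20-fold higher in ICH_MA than in Sham, a log2 difference of 2.38 ± 0.49 (SE, edgeR adjusted p = 0.0187). Top2a was 3.83-fold higher, with a log2 fold change of 1.94 and SE 0.41 (edgeR adjusted p = 0.0192). For Mki67 the difference was 2.66-fold, with a log2 fold change of 1.41 and SE 0.30 (edgeR adjusted p = 0.0195). In the plot of CPM by group, all 3 genes show the ICH_MA points between Sham and the 2 upper ICH points. For Ccnd1 the log2 fold change was 0.49 ± 0.16 (SE, edgeR adjusted p = 0.0929), and for Pcna it was 0.24 with SE 0.12 (edgeR adjusted p = 0.257). For Pcna the 95% confidence interval of the fold ran from 0.988 to 1.4.

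The number of calls depended on single libraries and on the model. Without Sham replicate 2, Cdk1, Top2a and Mki67 stayed called just under the threshold (edgeR adjusted p = 0.0489 to 0.0498). That was the nearest to 0.05 with any Sham library left out. Without ICH_MA replicate 1 or without replicate 2 none of the 5 was called (2.23% and 2.05% of all genes called higher), with edgeR adjusted p of 0.0609 to 0.0724 and of 0.0645 to 0.0934 for Cdk1, Top2a and Mki67. Limma-voom called 0 of 5 (3.64% of all genes called higher; adjusted p = 0.14 to 0.191 for these 3), while a model holding only the ICH_MA and Sham libraries called 5 of 5 (7.37% of all genes). Ccnd1 was called as well, making 4 of 5, with DESeq2 (adjusted p = 0.0349; 7.56% of all genes called higher) and without ICH replicate 5 (edgeR adjusted p = 0.0174; 7.68% of all genes). That library belongs to neither of the groups compared and is part of the model they share.

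**Figure D5:**
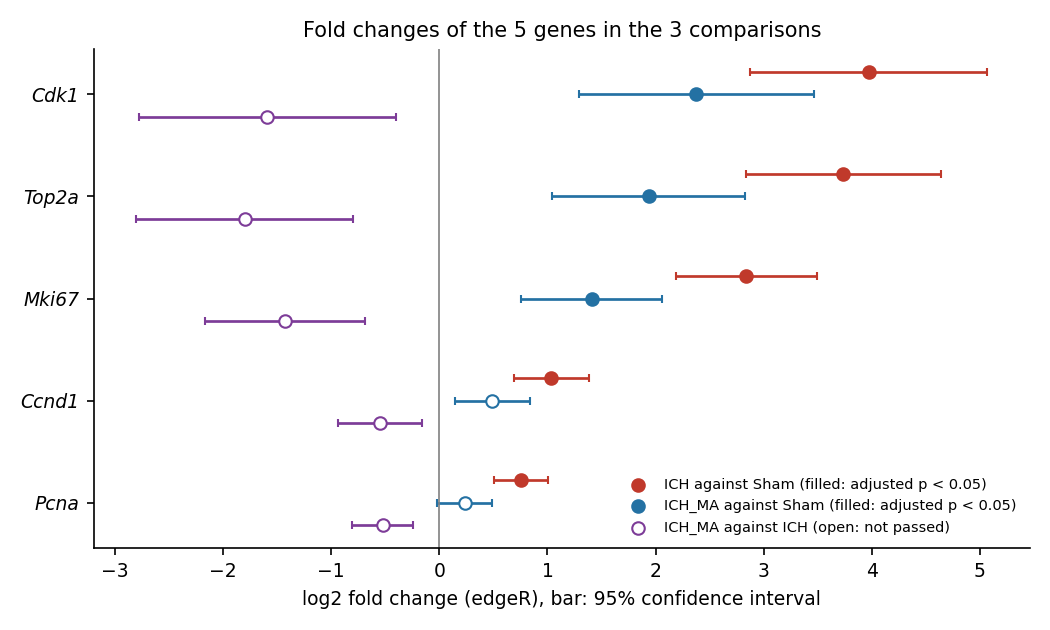
Log2 fold changes (edgeR) of the 5 genes in the 3 comparisons with 95% confidence intervals; filled points passed at adjusted p under 0.05 and open points did not. ICH against Sham runs from 0.76 (Pcna) to 3.97 (Cdk1), ICH_MA against Sham from 0.24 to 2.38, and ICH_MA against ICH lies below 0 for all 5 genes.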

How the data were processed

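RNA sequencing of rat brain tissue was deposited by the authors as whole-number counts for 15094 genes in 11 libraries, without normalization. The submitters' processing notes name Bowtie2, RSEM 1.3.1, DESeq2 1.4.5 and genome build mRatBN7.2. What each tool did, the annotation, the use of strand and any rounding are not given there. Library names in the labels tied each column to its sample. Reads shared between similar genes or antisense partners may be divided between IDs.

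Low genes were removed by group with filterByExpr (at least 10 counts, total of at least 15; 131 removed). Counts were then TMM-scaled and modelled in edgeR 4.0.16 (R 4.3.3) by quasi-likelihood, with 1 mean for each group and all 11 libraries together. Benjamini-Hochberg adjustment ran over 14963 genes, and adjusted p under 0.05 was called. The SE is the log2 fold change over the square root of F. A prior count of 2 was added for log2 CPM. Alternatives were DESeq2 1.42.0, limma-voom (limma 3.58.1), RLE size factors, no filter, only the groups compared, a replicate block and each library left out. Ratios of 2 genes within a library, added after the results were seen, used exact permutation tests (scipy 1.17.1).

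The 5 genes, the lists and the tests were chosen with earlier results of these data known. All 5 are named; the 2 IDs most like Cdk1, Top2a and Mki67 were taken by mean Pearson correlation. Lists of cell cycle genes and cell type markers hold symbols, and 0 of the 15094 IDs could be matched to one, so they were not tested. The design gives 5 rats a group, and the labels do not tie a library to a rat. The p-values therefore weigh group differences against the spread between these libraries. The planned tests took all libraries that the count table holds. How those were chosen from the labelled samples is not stated.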

Additional observations from a re-analysis of the deposited data

How the results depend on the processing

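The 5 rises in ICH against Sham were called under all 18 alternatives. In ICH_MA against ICH, 0 of 5 were called, against 3 with DESeq2, 5 without both ICH replicate 5 and Sham replicate 1 (added after the data were seen), and 0 to 5 with 1 library left out. In ICH_MA against Sham, 3 of 5 were called, against 0 with limma-voom, 5 when the model held only the groups compared and 0 to 4 with 1 library left out. Directions of all 15 fold changes held under all alternatives. Over all genes, ICH_MA against ICH gave 0 calls, 477 with DESeq2 and 0 to 1137 with 1 library left out. ICH_MA against Sham gave 998 calls, 1830 with DESeq2, 1541 with only the groups compared and 348 to 1575 with 1 library left out, and ICH against Sham gave 3662, or 1992 to 4484. Without both ICH replicate 5 and Sham replicate 1 the counts were 1384 for ICH_MA against ICH and 2008 for ICH_MA against Sham.

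Whether the replicate numbers pair the samples is not known. Deviations of same-numbered samples from their group means correlated at −0.16 to 0.09 over 8 pairs. With so few libraries a group, values this low cannot exclude a pairing. With the replicate block, ICH_MA against Sham gave 1 of 5 calls (Top2a, edgeR adjusted p = 0.0211) and 117 over all genes, and ICH against Sham gave 5 of 5 and 1914 over all genes.

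The difference of the log2 ratio of Cdk1 to Top2a changed sign: in ICH against Sham it was −0.03 and ranged from −0.23 (ICH replicate 2 left out) to 0.22 (ICH replicate 5 left out), with positive values also without Sham replicate 3 (0.07) or 5 (0.13). In ICH_MA against Sham it was 0.22 and ranged from −0.019 (ICH_MA replicate 1 left out) to 0.56 (ICH_MA replicate 3 left out). The cause was not tested. In Sham, Cdk1 rested on 35 to 48 counts per library and varied by 8.59%, against 15.6% from counting alone. Top2a in Sham varied by 42.4%, against 8.24% from counting alone.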

Other observations

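The spread between libraries differed by gene and group. In Sham, the coefficient of variation of Cdk1 was 8.59%, below the 15.6% that counting error alone gives at its mean count, whereas Top2a varied by 42.4% against 8.24% from counting. Sham replicates 1 and 4 held 221 and 222 counts of Top2a, and replicates 2, 3 and 5 held 119, 101 and 73. Cdk1 was also highest in Sham replicates 1 and 4, at 45 and 48 counts, but replicates 2, 3 and 5 (35 to 41 counts) were close for counts this low. For Mki67, replicate 1 was highest (5.66 CPM), and replicate 4 (4.59 CPM) lay below replicate 3 (4.84 CPM). In ICH, Cdk1, Top2a and Mki67 varied by 66.8%, 57.7% and 49.4%, and Ccnd1 and Pcna by 27.3% and 23.4%. In ICH_MA, Top2a varied by 13.1% and Pcna by 3.78%, and Cdk1 by 47.8%.

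The 2 genes whose log2 CPM over the 11 libraries was most like that of Cdk1, Top2a and Mki67, by mean Pearson's r, were ENSRNOG00000007089 (r = 0.984) and ENSRNOG00000056069 (r = 0.983). ENSRNOG00000007089 stood at 81.2 ± 2.94 CPM in Sham (SD, n = 5), 175.9 ± 47.4 across ICH (SD, n = 3) and 124.3 ± 11.8 across ICH_MA (SD, n = 3). ENSRNOG00000056069 stood at 1.12 ± 0.107, 11.1 ± 6.76 and 3.58 ± 0.686 CPM in the same groups. A total of 242 genes outside the 5 reached a mean r of 0.95, a level that Ccnd1 (0.947) and Pcna (0.937) did not reach. The points share the groups and the library scaling, so these values are descriptions.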
